A study of Rattus norvegicus with 5 samples.

Results

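The 40 genes described here act in mitosis: cyclins and the switches of the cyclin-dependent kinases, mitotic kinases, spindle checkpoint and kinetochore proteins, spindle motors, and proteins of mitotic exit and cytokinesis. They were chosen by symbol. Of the 40 symbols, 36 had a probe on the array and all 36 were tested, out of 14329 named genes tested in the series. Cenpe, Kif4a, Espl1 and Anln were not matched to a probe, so they have no ratio and enter only the promoter search below. The cells were mononuclear leukocytes washed out of the blood vessels of kidney grafts in male rats. Allografts were F344 kidneys in LEW recipients, a pair of strains that differs slightly at the class I locus, and isografts were LEW kidneys in LEW recipients. Both groups of recipients had lost their own kidneys, received ampicillin after surgery and were given no immunosuppression, and the donors had been given heparin. Granulocytes and red cells had been depleted over a Percoll gradient in both groups, and the labels give neither the animals' age nor the day of collection. Each of 5 dual-colour arrays set an allograft sample against an isograft sample, with the allograft in Cy5 on replicates 1, 3 and 5 and in Cy3 on replicates 2 and 4. Replicates are described as biological, without a note of which animals they came from. The p-values rest on the spread between these 5 arrays, which limma moderates toward a spread estimated over all features. Without that moderation, 0 features passed an adjusted p under 0.05.

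Values are log2 ratios, allograft over isograft, so a positive value means a higher transcript level in allograft leukocytes. That direction is likely but not stated outright: sample titles put the allograft before the isograft. All 11 tested markers of the interferon gamma response were called higher, with positive medians on all 5 arrays (1.45 to 2.72), and the medians of the erythroid markers were negative on all 5 (-2.02 to -1.24), so replicates 2 and 4 ran the same way as the others. The log base was taken as 2, so fold sizes hold for that base only. The rows carry gene names only through an order found by comparing probes. In that order, ratios averaged over the arrays correlated at 0.499 over 5817 pairs of probes of a shared accession, against 0.0219 in the next best order. On single arrays the correlation was highest on replicate 3 (0.605) and lowest on replicate 4 (0.175), with 0.322, 0.306 and 0.222 on replicates 1, 2 and 5. Levels were not measured apart from the ratios, so neither the abundance of a transcript nor the presence of the labelled cell type can be read from these values.

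In a dividing cell, CDK1 bound to cyclins A and B drives entry into mitosis, and polo-like and Aurora kinases build the spindle. Kinetochores tie chromosomes to spindle microtubules, and the spindle checkpoint holds back the anaphase-promoting complex until every chromosome is attached. The transcripts of many of these proteins are made mainly in the G2 phase and in mitosis, and lymphocytes switch them on when antigen sets them dividing.

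Most mitotic genes had positive ratios in allograft over isograft leukocytes, and most of them were not called. Of the 36 tested genes, 30 had a ratio above 0 and 6 below, which is 83.3% above 0, against 49.1% of all named genes. Called higher, at an adjusted p under 0.05 in limma, were Cdkn3, Nuf2, Stmn1, Bub1 and Ccna2, each raised by between 2.05-fold and 2.52-fold. A single gene, Cdc25b, was called lower, at 0.414 times its isograft level. These 6 genes are 16.7% of those tested, while 1.35% of all 33646 features and 1.78% of the named genes were called. In one direction, 5 of 36 (13.9%) were called higher, where 0.761% of all features were called higher and 0.591% lower (1.07% and 0.712% of the named genes). The other 30 mitotic genes were not called. In bulk samples such as these, more or fewer dividing cells and more or less RNA per dividing cell cannot be told apart.

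The median ratio of the 36 genes was 0.42 (quartiles 0.18 and 0.73), and that of all named genes was -0.01 (quartiles -0.18 and 0.16). Of the mitotic genes, 20 lay above 0.32, the 90th percentile of named genes, and 2, Cdc25b and Kif23, lay below the 10th percentile of -0.37. Before adjustment, 19 were higher and 2 lower at p under 0.05, 58.3% in all against 15.2% of named genes (7.63% higher and 7.54% lower). Values on all 5 arrays existed for 34 of them, and 17 (50%) of these were above 0 on every array, where the background among 13314 named genes was 11.0%. Only Cdc25b was below 0 on every array, where the background was 9.81%. SEs of the ratios ran from 0.128 (Cdc20) to 0.255 (Nusap1).

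**Figure D1:**
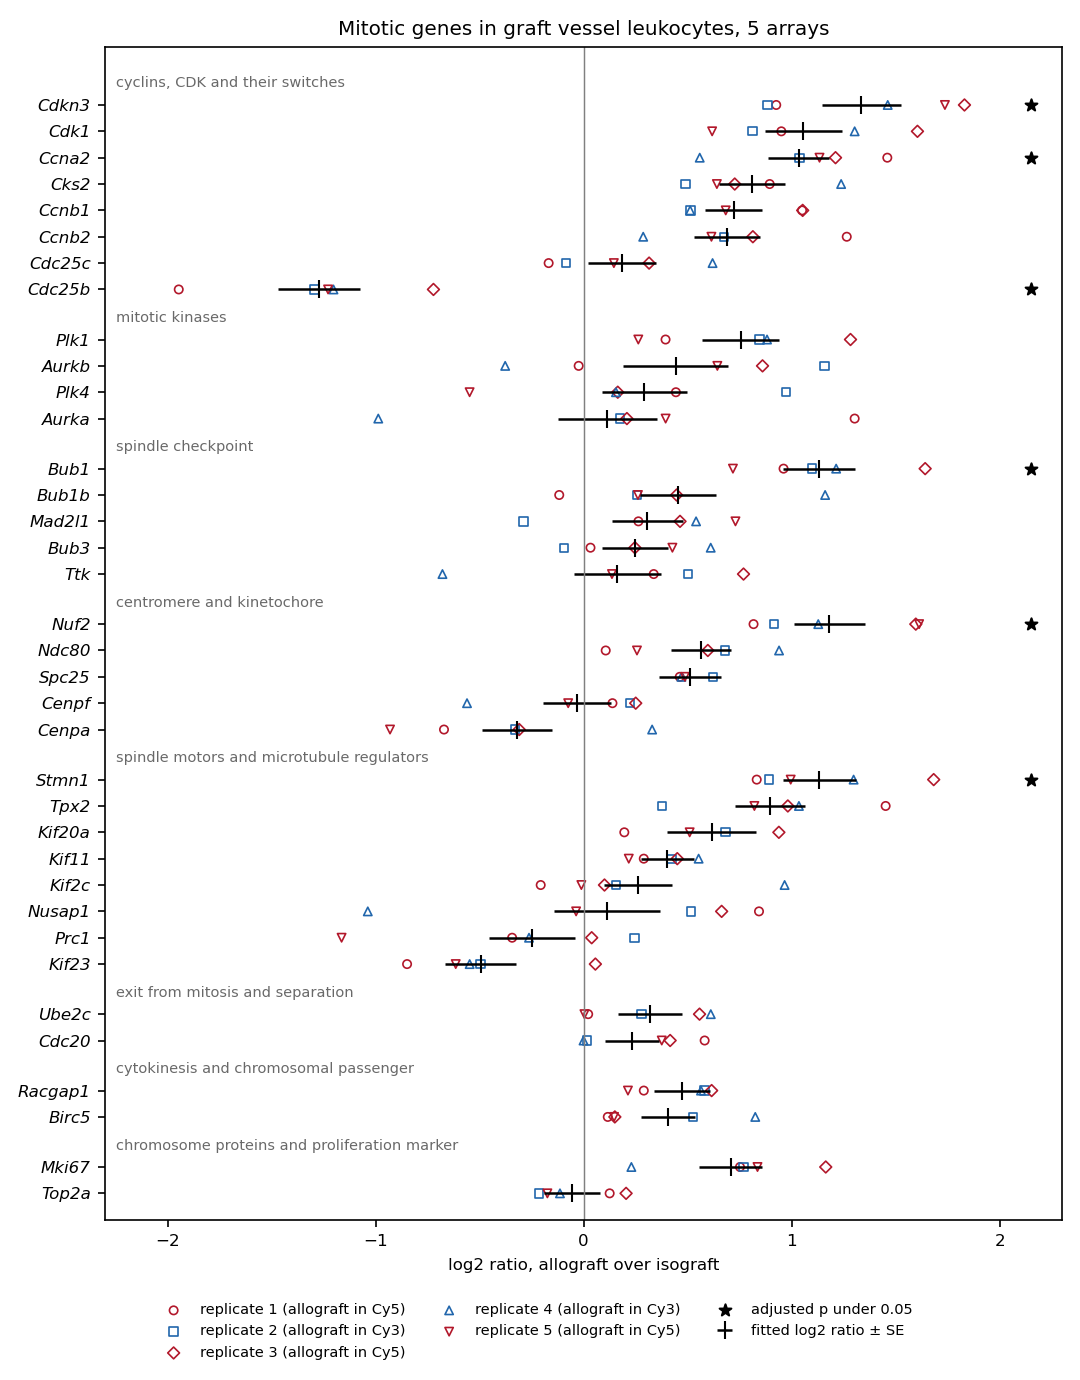
Log2 ratio, allograft over isograft (horizontal axis), of the 36 tested mitotic genes, grouped by role and ordered by ratio. Open symbols are the 5 arrays, red with the allograft in Cy5 and blue with it in Cy3, black bars are the limma ratio ± SE, and stars mark an adjusted p under 0.05. The 5 genes called higher lie right of 0 on every array, and Cdc25b lies left of 0 on every array.

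The calls rested on all 5 arrays. With any array left out, none of the 6 genes was called, while 0.225%, 0.442%, 0.303%, 0.209% and 0.189% of all features were called without replicates 1, 2, 3, 4 and 5. In those fits the adjusted p ran from 0.0586 to 0.175 for Cdkn3, from 0.0586 to 0.179 for Nuf2, from 0.0872 to 0.217 for Stmn1, from 0.0875 to 0.198 for Bub1, from 0.0972 to 0.142 for Ccna2 and from 0.0690 to 0.181 for Cdc25b. The ratios kept their sign, at 1.19 to 1.48 for Cdkn3, 1.11 to 1.31 for Nuf2, 1.00 to 1.23 for both Stmn1 and Bub1, 0.91 to 1.15 for Ccna2 and -1.42 to -1.11 for Cdc25b. With all arrays scaled to a common spread the 5 higher genes were not called (adjusted p = 0.0722 for Ccna2, 0.0885 for Nuf2, 0.0886 for Cdkn3, and 0.119 for both Bub1 and Stmn1), although each ratio was then larger than as reported. In that setting 0.927% of all features were called, 97 higher and 215 lower, against 256 higher and 199 lower as reported.

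The median of the mitotic genes lay above that of the other genes on each array. It was 0.31, 0.51, 0.60, 0.55 and 0.32 on replicates 1 to 5, and the medians of all named genes lay between -0.02 and 0.02. Above 0 were 28 of 36, 29 of 36, 33 of 35, 25 of 35 and 27 of 36 of them. Replicate 3 thus had the highest median and the fewest genes below 0, and replicate 4 the largest share below 0. Replicates 2 and 3 were also the arrays with the narrowest spread over named genes (SD 0.394 and 0.390, against 0.622, 0.659 and 0.647 on replicates 1, 4 and 5). Cdc25b was the lowest of the tested genes on all 5 arrays, and Cdkn3 was the highest on replicates 3, 4 and 5. No dye effect was called in any of the 36 (limma, smallest adjusted p = 0.456). The share of all features with a called dye effect was not counted, so that result has no background beside it. The median was 0.47 with the allograft in Cy5 and 0.51 with it in Cy3. Across all named genes, however, some arrays were almost uncorrelated. Correlations were 0.47 to 0.64 among replicates 1, 3 and 5, and 0.27 between replicates 2 and 4. Between arrays of unlike dye orientation they ran from -0.01 (replicates 1 and 4) to 0.48 (replicates 2 and 3). The part of the dye in this was not tested.

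**Figure D2:**
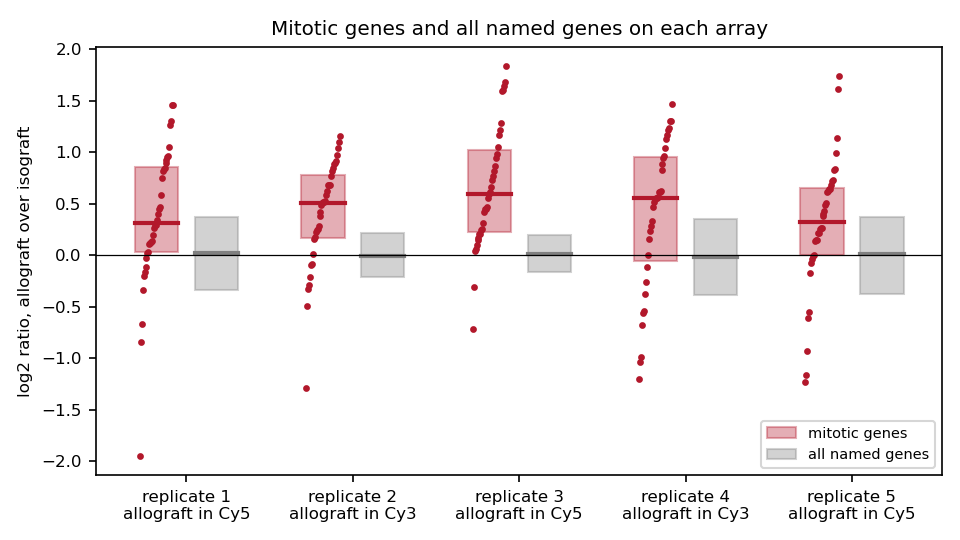
Log2 ratio, allograft over isograft (vertical axis), of the mitotic genes (red points, box of the quartiles, bar at the median) and of all named genes (grey box and bar) on each array. The mitotic medians lie between 0.31 and 0.60, above the upper quartile of the named genes on replicates 2, 3 and 4.

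Many promoters of mitotic genes carry a pair of short elements, the CCAAT box, which the factor NF-Y binds, and the cell cycle genes homology region (CHR), through which the DREAM and MuvB complexes keep genes silent in resting cells and active in G2. RefSeq promoters of the GRCr8 assembly, 250 bases before to 50 after the start, were matched for 35 of the 40 genes. Ccna2, Aurkb, Tpx2, Ube2c and Racgap1 were not matched. The letters TTTGAA or TTCAAA (CHR, both strands) were found in 25 of 35 (71.4%), against 18.1% of 27457 promoters of the same length, and CCAAT or ATTGG (both strands) in 26 of 35 (74.3%), against 37.7%. Both elements were present in 19 of 35 (54.3%), against 7.25% of all promoters. The 160 bases before the start are given for Cdkn3 and Stmn1, which were called higher, for Cdk1 and its cyclin partner Ccnb2, for the proliferation marker Mki67, and for Cdc25b, the gene that fell. Capitals mark both kinds of match, and each line reads 5′ to 3′ on the gene's own strand.
Cdkn3 (chr15:22502226-22502385, + strand): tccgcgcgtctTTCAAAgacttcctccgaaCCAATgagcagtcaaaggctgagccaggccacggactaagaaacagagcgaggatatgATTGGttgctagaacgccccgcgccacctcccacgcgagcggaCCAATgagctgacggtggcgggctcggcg
Stmn1 (chr5:151965019-151965178, + strand): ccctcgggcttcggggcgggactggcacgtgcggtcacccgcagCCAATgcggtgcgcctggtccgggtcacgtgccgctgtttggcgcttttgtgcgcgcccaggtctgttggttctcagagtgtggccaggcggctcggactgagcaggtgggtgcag
Cdk1 (chr20:19265133-19265292, + strand): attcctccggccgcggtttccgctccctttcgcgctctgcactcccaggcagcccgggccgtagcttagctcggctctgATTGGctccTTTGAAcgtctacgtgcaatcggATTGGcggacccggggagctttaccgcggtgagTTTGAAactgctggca
Ccnb2 (chr8:79981659-79981818, - strand): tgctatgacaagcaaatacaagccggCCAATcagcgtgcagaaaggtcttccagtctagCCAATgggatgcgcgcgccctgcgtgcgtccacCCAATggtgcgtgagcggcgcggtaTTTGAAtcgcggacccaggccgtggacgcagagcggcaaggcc
Mki67 (chr1:199952594-199952753, - strand): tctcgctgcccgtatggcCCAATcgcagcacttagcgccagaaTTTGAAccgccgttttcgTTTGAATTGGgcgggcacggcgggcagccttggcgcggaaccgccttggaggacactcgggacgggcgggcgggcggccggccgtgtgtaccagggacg
Cdc25b (chr3:138860013-138860172, + strand): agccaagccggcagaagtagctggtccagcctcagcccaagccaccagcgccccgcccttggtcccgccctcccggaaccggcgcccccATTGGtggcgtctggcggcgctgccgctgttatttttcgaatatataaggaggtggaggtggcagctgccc

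Cdkn3 has a CHR match at 149 bases before the start and 3 CCAAT matches, and Cdk1 has CHR matches at 72 and 16 bases before it. In Ccnb2 the CHR match at 43 bases before the start follows 3 CCAAT boxes, and a further CHR match lies outside the stretch shown. Mki67 has 2 CHR matches, the second sharing letters with a CCAAT match. Stmn1 and Cdc25b have 1 CCAAT match each in the stretches shown and no CHR match in the whole window. Nuf2 has a CHR match at 30 bases after its start, and Bub1, Aurka and Kif2c have neither motif. The median ratio was 0.36 over 22 tested genes with a CHR match (from -0.50 for Kif23 to 1.33 for Cdkn3) and 0.40 over 9 without (from -1.27 for Cdc25b to 1.13 for Stmn1), given as a description.

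The cyclins, CDK1 and the proteins that switch it had the highest median of any role, 0.76 over 8 genes, with 2 called higher, 1 called lower and 5 not called. Cdkn3, a phosphatase that takes an activating phosphate off cyclin-dependent kinases, had ratios of 0.93, 0.88, 1.83, 1.46 and 1.74 on replicates 1 to 5. All 5 values were well above 0, those of replicates 3 to 5 above those of replicates 1 and 2, and the fitted ratio was 1.33 ± 0.19 (SE, n = 5 arrays, 2.52-fold, limma adjusted p = 0.0279). Ccna2, cyclin A2, the partner of CDK2 in S phase and of CDK1 in G2, stood at 1.46, 1.04, 1.21, 0.56 and 1.13, lowest on replicate 4. Its fitted ratio was 1.03 ± 0.14 (2.05-fold, adjusted p = 0.0276). Cdk1, the mitotic kinase itself, had values of 0.95, 0.81, 1.61, 1.30 and 0.62 and a ratio of 1.06 ± 0.19, larger than that of Ccna2, but its adjusted p of 0.0522 missed the threshold.

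The B-type cyclins, which activate CDK1 at the start of mitosis, were above 0 on every array and not called. Ccnb1 stood at 1.05, 0.51, 1.05, 0.51 and 0.68 (0.72 ± 0.14, adjusted p = 0.0612), lower on both arrays with the allograft in Cy3 than on the other three. Ccnb2 had a ratio of 0.69 ± 0.16 (adjusted p = 0.0999). Cks2, a small subunit of CDK complexes, stood at 0.89, 0.49, 0.73, 1.24 and 0.64 (0.81 ± 0.16, adjusted p = 0.0670). The CDC25 phosphatases strip inhibitory phosphates from CDK1 and so push a cell into mitosis. Cdc25b stood at -1.95, -1.29, -0.72, -1.20 and -1.23, negative throughout and lowest on replicate 1, with a fitted ratio of -1.27 ± 0.20 (adjusted p = 0.0373). Its relative Cdc25c had a ratio of 0.18 ± 0.16 (adjusted p = 0.684), with 3 arrays above 0 and 2 below. Cdc25b was measured with a single probe, as were Cdkn3 and Cdk1, and also Bub1 and Nuf2 among the genes called higher.

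None of the 4 mitotic kinases was called, and all 4 ratios were above 0 (median 0.37). Plk1, the polo-like kinase of centrosome maturation and spindle assembly, had ratios of 0.39, 0.85, 1.28, 0.88 and 0.26, above 0 on every array (0.76 ± 0.19, adjusted p = 0.121). Plk4, which controls centriole duplication, stood at 0.29 ± 0.20. Aurkb, the kinase of the chromosomal passenger complex, varied from array to array, with -0.02, 1.16, 0.86, -0.38 and 0.64 (0.44 ± 0.25, adjusted p = 0.527). Aurka, the kinase of the spindle poles, varied still more, with 1.30, 0.17, 0.21, -0.99 and 0.39 (0.11 ± 0.24, adjusted p = 0.867). The values of replicates 1 and 4 thus lay on opposite sides of 0 for Aurka, and its ratio turned negative without replicate 1 (-0.05) or without replicate 2 (-0.18). The fitted ratio weighs both dye orientations equally, so without replicate 2 the Cy3 side rests on replicate 4 alone.

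All 5 spindle checkpoint genes had ratios above 0 (median 0.31), and 1 was called. Bub1, a kinetochore kinase that gathers the checkpoint proteins, stood at 0.96, 1.10, 1.64, 1.21 and 0.72. It was high on every array, and the ratio was 1.13 ± 0.17 (2.19-fold, adjusted p = 0.0361). Bub1b, which encodes BUBR1, a subunit of the mitotic checkpoint complex, had a ratio of 0.45 ± 0.18 (adjusted p = 0.345). The ratio of its partner Bub3 was 0.25 ± 0.16, and that of Mad2l1, the MAD2 protein that captures CDC20, was 0.31 ± 0.17. Ttk, the MPS1 kinase that starts checkpoint signalling, stood at 0.34, 0.50, 0.77, -0.68 and 0.14, with replicate 4 alone below 0 (0.16 ± 0.21, adjusted p = 0.781). The highest Ttk probe (0.97) had no value on replicate 4, so the value there is a mean over lower probes. That probe also left the fit without replicate 2, having no other value with the allograft in Cy3. The Ttk ratio was then -0.31.

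Of the 5 tested centromere and kinetochore genes 1 was called, and the median was 0.51. The NDC80 complex, which grips microtubule ends at the kinetochore, was measured through 3 subunits, and all 3 were above 0 on every array with a value. Nuf2 stood at 0.82, 0.92, 1.60, 1.13 and 1.61, highest on replicates 3 and 5 (1.18 ± 0.17, 2.27-fold, adjusted p = 0.0293). Ndc80 reached a ratio of 0.56 ± 0.14 (adjusted p = 0.131), and Spc25 a ratio of 0.51 ± 0.15 (adjusted p = 0.211). Spc25 had no value on replicate 3, so its fit used 4 arrays. Cenpa, the histone H3 variant that marks centromeres, went the other way on 4 of 5 arrays, with -0.67, -0.33, -0.31, 0.33 and -0.93 (-0.32 ± 0.17, adjusted p = 0.489). Cenpf, a large protein of the outer kinetochore, stood at -0.03 ± 0.16, and its sign changed in 5 of the alternative settings.

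Among 8 tested spindle motors and microtubule regulators, 1 was called higher and none lower (median 0.33). Stmn1, stathmin, which binds tubulin and destabilises microtubules, stood at 0.83, 0.89, 1.68, 1.30 and 1.00, with no array near 0. Its fitted ratio was 1.13 ± 0.17 (2.19-fold, adjusted p = 0.0373). Tpx2, an activator of Aurora A and a spindle assembly factor, followed at 0.90 ± 0.17 (adjusted p = 0.0614). Kif11, the kinesin that pushes spindle poles apart, had a ratio of 0.40 ± 0.13 and was above 0 on 5 of 5 arrays. Kif2c, a kinesin that takes microtubules apart, stood at 0.26 ± 0.16.

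The genes of the spindle midzone had ratios on both sides of 0, and none was called. Kif20a, a kinesin of the central spindle, had a ratio of 0.61 ± 0.21 over 4 arrays, since it had no value on replicate 4. Kif23, the kinesin of the centralspindlin complex, stood at -0.85, -0.50, 0.06, -0.55 and -0.62, below 0 on all arrays but replicate 3 (-0.50 ± 0.17, adjusted p = 0.261). Racgap1, the other subunit of centralspindlin, stood at 0.29, 0.58, 0.62, 0.56 and 0.21, above 0 throughout (0.47 ± 0.14, adjusted p = 0.178). Prc1, which bundles the antiparallel microtubules of the midzone, had a ratio of -0.25 ± 0.21, and the microtubule bundler Nusap1 one of 0.11 ± 0.26, with array values from -1.04 (replicate 4) to 0.84 (replicate 1). Without replicate 2 the ratio of Nusap1 was -0.27.

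The remaining roles held no called gene. Cdc20, the activator of the anaphase-promoting complex that the checkpoint restrains, stood at 0.58, 0.01, 0.42, -0.00 and 0.38 (0.23 ± 0.13, adjusted p = 0.510). Ube2c, the ubiquitin-conjugating enzyme of that complex, stood at 0.02, 0.28, 0.56, 0.61 and 0.00 (0.32 ± 0.15, adjusted p = 0.445). Both were thus near 0 on some arrays and higher on others. Birc5, survivin, of the chromosomal passenger complex, stood at 0.12, 0.53, 0.15, 0.83 and 0.15, higher on both arrays with the allograft in Cy3 (0.41 ± 0.13, adjusted p = 0.228).

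Mki67 and Top2a are common markers of dividing cells, and neither was called. Mki67, which encodes the Ki-67 antigen, a coat of mitotic chromosomes, stood at 0.75, 0.77, 1.16, 0.23 and 0.84. It was above 0 on every array, with a ratio of 0.71 ± 0.15 (1.63-fold) and an adjusted p of 0.0832. Top2a, the topoisomerase that untangles replicated chromosomes, stood at 0.13, -0.21, 0.20, -0.11 and -0.17, close to 0 on every array (-0.06 ± 0.14, adjusted p = 0.886). A second Top2a probe had values on 2 arrays only, 0.80 on replicate 2 and 0.27 on replicate 5, and was left out by the requirement of 4 arrays.

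Probes of the same gene often differed. Of the 16 mitotic genes with several usable probes, 4 had probes more than 1 apart on the log2 scale, and the median range was 0.44, against 0.31 over named genes with several probes. The Ccna2 probes stood at 1.71 (adjusted p = 0.00851 when fitted singly) and 0.36, so its call rests on 1 of its probes. Cks2 had 1 probe at 1.34 (adjusted p = 0.0124) and another at 0.27. Racgap1 had 4 probes, at 1.29 (adjusted p = 0.0197), 0.80, -0.02 and -0.17. Ttk had probes at 0.97, -0.04 and -0.07. The Stmn1 probes agreed more closely, at 1.17 and 1.10, as did those of Ccnb1, at 0.74 and 0.70. A Bub1b probe stood at 2.89 on replicate 4 and between -1.28 and 0.12 on the other arrays.

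Probes were also split by whether their accession is a RefSeq transcript, a split made after the values were seen. Of 57 mitotic probes fitted singly, 8 were called, 7 higher and 1 lower, where 1.42% of all 41630 features were called in that fit. All 8 were among the 47 probes of RefSeq transcripts, and 0 were among the 10 others. In 10 of 10 genes with both kinds, the other accessions gave the lower mean ratio, although in Racgap1 and Ttk the lowest single probe was of a RefSeq transcript, with medians of -0.03 for other accessions and 0.52 for RefSeq transcripts. Among genes with both kinds and RefSeq probes above 0, the other kind was lower in 9 of 9 mitotic genes and in 80.2% of 1878 named genes. Across 3318 named genes with both kinds the correlation was 0.168, and the SDs were 0.272 for other accessions and 0.394 for RefSeq transcripts. With RefSeq probes alone, 8 of 36 mitotic genes were called, where 1.67% of all features were. Cks2 was then called higher (1.34, adjusted p = 0.0114). Cdk1 was called too (adjusted p = 0.0489, against 0.0522 as reported), although its single probe and its ratio of 1.06 were unchanged.

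**Figure D3:**
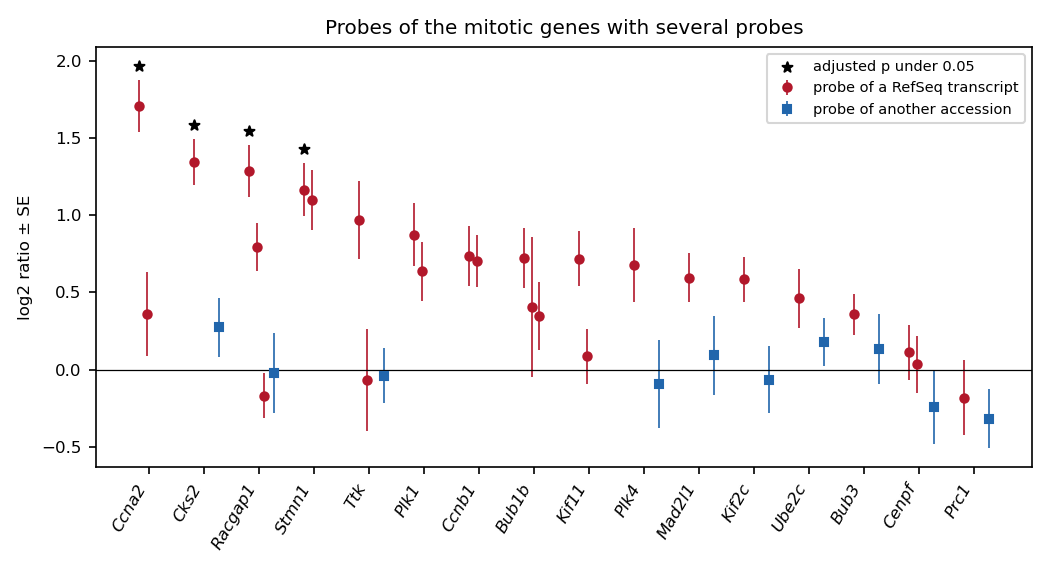
Log2 ratio ± SE, allograft over isograft (vertical axis), of each probe of the 16 mitotic genes with several probes. Red circles are probes of RefSeq transcripts, blue squares probes of other accessions, and stars mark an adjusted p under 0.05. In 10 of 10 genes with both colours the blue probes are lower on average.

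Genes of neighbouring pathways give the setting. Of 55 other tested mitotic genes, none was called (limma, 15 higher and 0 lower at an unadjusted p under 0.05), 42 were above 0 and the median was 0.28. Among all named genes, 7.63% were higher and 7.54% lower at that unadjusted threshold, and 49.1% were above 0. The kinesin Kif15 was highest at 1.05 ± 0.18 (adjusted p = 0.0506), and the kinetochore gene Zwint lowest at -0.35 ± 0.15. Among 14 subunits and regulators of the anaphase-promoting complex none was called (4 higher at an unadjusted p under 0.05), with a median of 0.26 and a range from -0.40 (Fzr1, the activator of late mitosis and G1) to 0.55 (Cdc26). Among 10 condensin and cohesin genes none was called and 0 passed even before adjustment (median 0.06, from -0.21 for Ncapd3 to 0.28 for Smc3).

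Transcription regulators of the mitotic programme had ratios in both directions, 8 of 15 above 0, with a median of 0.01. Tfdp2, a dimer partner of E2F factors, fell by 0.98 on the log2 scale (SE 0.14, adjusted p = 0.0308), with -1.32, -1.06, -0.86, -0.78 and -0.94 on the 5 arrays, and its relative Tfdp1 was highest at 0.33 ± 0.13. The next lowest was E2f4, a repressing E2F factor of resting cells, at -0.46 (not called). The list of G1 cyclins, kinases and CDK inhibitors had a median of 0.05 over 20 genes. There Ccne1, cyclin E1, which drives entry into S phase, was called higher (1.03 ± 0.17, adjusted p = 0.0464), and the CDK inhibitor Cdkn1b stood lowest at -0.36 ± 0.17. Neither call held with any array left out (adjusted p from 0.0948 to 0.147 for Tfdp2 and from 0.0927 to 0.239 for Ccne1).

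DNA replication genes, which work in the preceding S phase, had a similar median: 3 of 34 were called higher and none lower (1.07% and 0.712% of all named genes), 29 were above 0 and the median was 0.41. The called genes were Mcm6 of the replicative helicase (0.96 ± 0.13, adjusted p = 0.0240), the dUTPase Dut (0.94 ± 0.14, adjusted p = 0.0369) and the ribonucleotide reductase subunit Rrm1 (0.86 ± 0.13, adjusted p = 0.0373). Gmnn, the licensing inhibitor geminin, was highest at 1.03 ± 0.18 (adjusted p = 0.0514), and Gins3 lowest at -0.37 ± 0.29. None of these calls held with any array left out, with adjusted p-values from 0.0756 (Mcm6) to 0.221 (Rrm1).

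**Figure D4:**
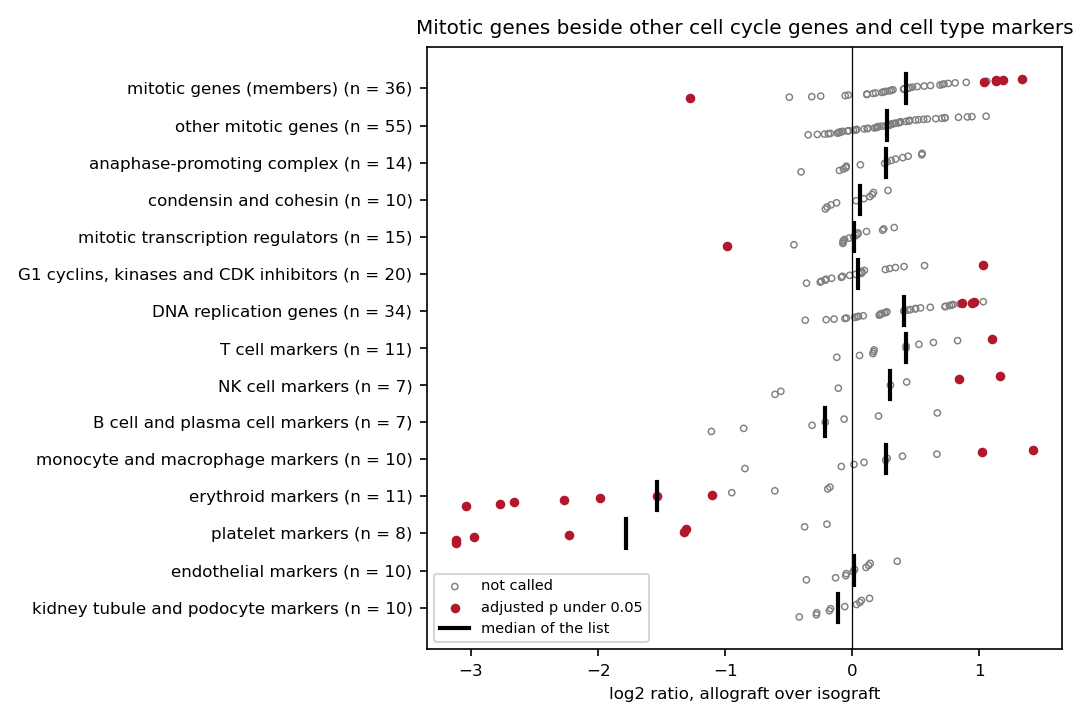
Log2 ratio, allograft over isograft (horizontal axis), of each tested gene of the mitotic list, of 6 other cell cycle lists and of 8 lists of cell type markers. Red points have an adjusted p under 0.05, open points do not, and black bars are list medians. The mitotic median of 0.42 lies near those of the DNA replication genes (0.41) and T cell markers (0.42), while the erythroid and platelet medians lie at -1.54 and -1.78.

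Markers of several cell types moved beside the mitotic genes, where 1.07% of all named genes were called higher and 0.712% lower. Erythroid markers were below 0 in 11 of 11 and called lower in 7 (median -1.54, Hbb-b1 lowest at -3.04), and platelet markers were below 0 in 8 of 8 and called lower in 6 (median -1.78, Clec1b lowest at -3.12). Monocyte and macrophage markers had a median of 0.27, with Cd14 (1.42) and Aif1 (1.02) of 10 called higher, and Ccr2 lowest at -0.85 (adjusted p = 0.0866), below 0 on all 5 arrays. T cell markers had a median of 0.42, with Cd3e (1.10) of 11 called higher and Cd5 lowest at -0.12 (4 arrays), and their array medians ran from -0.07 on replicate 1 to 0.62 on replicate 3. NK cell markers had a median of 0.30, with Klrk1 (1.16) and Nkg7 (0.84) of 7 called higher. The NK receptor genes Ncr1 (-0.61) and Klrd1 (-0.56) stood below 0 and were not called, and 4 of the 7 NK cell markers were above 0. No B and plasma cell marker of 7 was called (median -0.21; 1 higher and 2 lower at an unadjusted p under 0.05). No endothelial marker of 10 was called (median 0.01), and neither was any of 10 tubule and podocyte markers (median -0.12). The part of these cell types in the mitotic ratios was not tested, and which cells carried the mitotic transcripts cannot be read from pooled RNA.

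**Figure D5:**
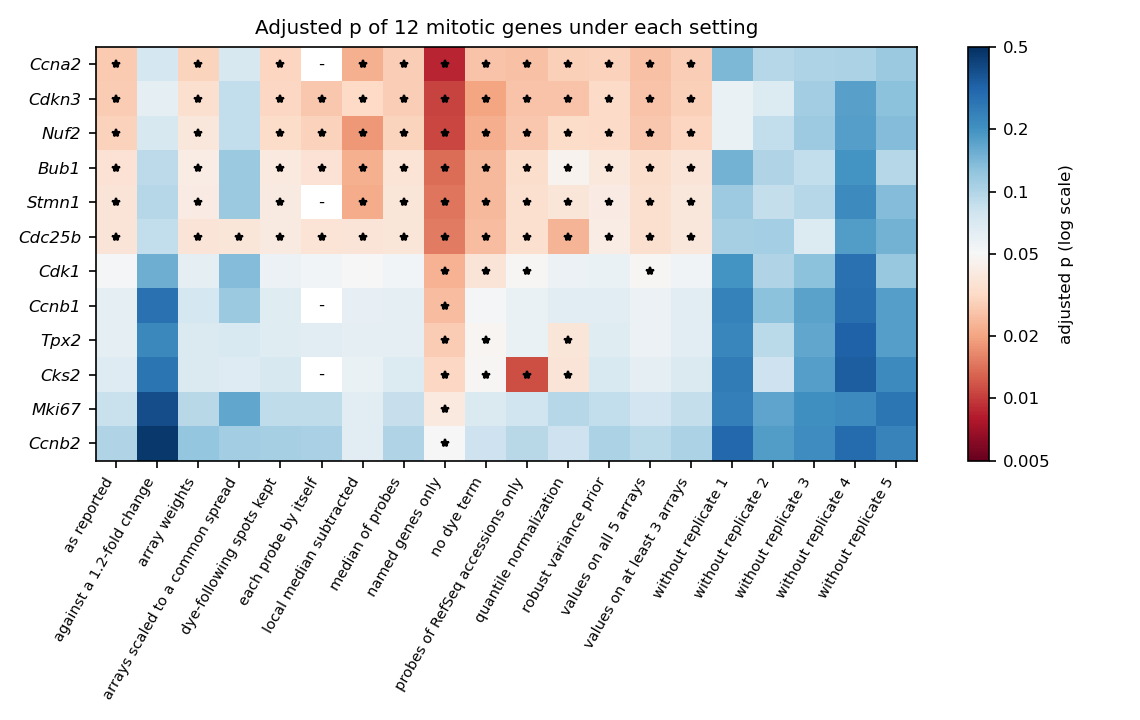
Adjusted p (colour, log scale) of the 12 mitotic genes called at least once with a single value per gene, in the reported fit and 19 alternative settings. Stars mark values under 0.05 and dashes mark genes with no single value in that setting. The stars of Cdkn3, Nuf2, Stmn1, Bub1 and Ccna2 are missing with arrays scaled, against a 1.2-fold change and with any array left out, while 12 genes have a star when named genes alone are tested.

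The number of calls depended on the setting. With named genes alone, 12 of the 36 were called, where 3.94% of 14329 genes were: the 6 above and, higher in allograft leukocytes, Cdk1 (adjusted p = 0.0225), Ccnb1 (0.0246), Tpx2 (0.0280), Cks2 (0.0310), Mki67 (0.0396) and Ccnb2 (0.0497). Against a 1.2-fold change none of the 36 was called (smallest adjusted p = 0.0617, for Cdkn3, where 0.586% of all features were called). There 13 of the 36 were higher and 1 lower at an unadjusted p under 0.05, without a count of all named genes at that threshold. Without the dye term 9 were called (1.90% of all features), the additions being Cdk1, Cks2 and Tpx2, and with quantile normalization 8 (2.23% of all features), the additions being Cks2 and Tpx2. The median of the 36 genes lay between 0.38 and 0.54 in all 19 alternatives.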

How the data were processed

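The authors deposited a log ratio per spot for each of 5 dual-colour arrays, used here as log2 ratios. No source used here names the scanner, the background correction, the normalization or the log base. Spot intensities were not used, and precision is limited by the number of arrays. The value table has 103 rows by 430 columns of spots, and its order was matched to the platform annotation through probes of shared accessions. The annotation gave 1 gene for 23535 probes, several for 48 and none for 20707, and symbols were updated through RefSeq (GRCr8; 23488 probes matched, 1 symbol changed). Left out were 407 spots whose ratio followed the dye by more than 3, of which 0 were named. Probes needed values on 4 arrays and in both dye orientations, and probes of a gene were then averaged. R 4.3.3 and limma 3.58.1 (functions lmFit and eBayes) gave graft and dye effects (two-sided, prior degrees of freedom 3.92, residual 3) over 33646 features with Benjamini-Hochberg adjustment, threshold 0.05. In an unmoderated limma fit 0 features passed, with 4501 at an unadjusted p under 0.05. The fit was tested on simulated data.

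Every mitotic gene is named. Values by array are given for called genes, the highest and lowest of each role, genes whose probes differ by more than 1, and Mki67, Top2a, Cdk1, Ccnb1, Plk1 and Aurkb, and of the other cell cycle lists the called genes and both extremes. Marker lists are given by counts with some of their genes. The genes, lists and tests were chosen with earlier results of these data known. For a gene with several promoters the first listed was used. The search for KEN letters in the proteins was not run.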

Additional observations from a re-analysis of the deposited data

Results flagged for a closer look

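Of the 36 tested mitotic genes, each looked at for an array far from the others, 1 stood out. Spc25, a subunit of the NDC80 kinetochore complex, had its highest ratio on replicate 2, at 0.62 on the log2 scale, while the other 3 arrays with a value lay between 0.46 and 0.49. The gap was 0.846 of the whole range, just above the critical value of Dixon's test for 4 arrays. Chance flags about 1 in 20 such groups, and the direction was the same on all 4 arrays.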

How the results depend on the processing

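Of the 36 mitotic genes, 6 were called as reported. None was called against a 1.2-fold change (0) or with any array left out (0 in each of 5 fits, with 16 to 19 higher and 1 or 2 lower at an unadjusted p under 0.05 by limma), 1 was called with arrays scaled to a common spread and 12 with named genes only, and the other settings gave 6 to 9. At an unadjusted p under 0.05, shares of named genes were counted in the reported fit only (limma, 7.63% higher and 7.54% lower). The unadjusted counts with an array left out thus have no share of all genes beside them. The 455 features called became 197 when tested against a 1.2-fold change, 64 to 149 with an array left out and 749 with quantile normalization. The share of calls that were higher, 56.3%, was 31.1% with arrays scaled, 44.7% without replicate 3 and 68.1% without replicate 4. For the other mitotic genes, 0 as reported, the count was 1 with each probe by itself or with values on all 5 arrays, 2 with the local median subtracted, without the dye term, with RefSeq accessions only (chosen after seeing the data) or with quantile normalization, and 5 with named genes only. For DNA replication genes, 3 as reported, it was 0 against a 1.2-fold change, with arrays scaled and with any array left out, 5 with the local median subtracted, 7 without the dye term and 8 with named genes only. Of all features, 1.35% were called as reported, 0.586% against a 1.2-fold change and 0.927% with arrays scaled. The share was 1.42% with each probe by itself, 1.67% with RefSeq accessions only and 1.90% without the dye term. It was 2.23% with quantile normalization and 3.94% with named genes only. With the local median subtracted 543 of 33646 features were called, and with values on all 5 arrays 515 of 30694.

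Of 665 ratios of single mitotic genes under the 19 alternatives, 599 kept both direction and call, 41 lost a call, 14 gained one and 11 changed sign, none of the last in a called gene. Cenpf stood at 0.041 with arrays scaled, 0.038 with quantile normalization, 0.074 with RefSeq accessions only and between -0.23 (without replicate 2) and 0.16 (without replicate 4) with an array left out. Ttk stood at -0.053 with values on all 5 arrays, a setting that left out its highest probe. With an array left out, Ttk ran from -0.31 (without replicate 2) to 0.46, Aurka from -0.18 (without replicate 2) to 0.40, Nusap1 from -0.27 (without replicate 2) to 0.50, each highest without replicate 4, and Top2a from -0.094 (without replicate 3) to 0.00037 (without replicate 5). The graft effect weighs both dye orientations equally. Without replicate 2 the Cy3 side thus rested on replicate 4 alone, where Aurka stood at -0.99 and Nusap1 at -1.04. Without replicate 2, Ttk also lost its highest probe. Further causes were not tested. Each array already sets its allograft sample against its isograft sample in a single ratio, so the fit of these ratios keeps that pairing.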
